A study of Schizosaccharomyces pombe with 49 samples.

Results

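Fission yeast cells (Schizosaccharomyces pombe) carrying tor2-ts6, a temperature-sensitive allele of the TORC1 kinase gene, were compared with and without a deletion of ddb1. The comparison uses 2 of the 49 samples of the series, chosen by their strain labels, with 1 library a side. The first is tor2-ts6 ddb1-delta and the second is tor2-ts6, both homothallic h90 cells in YEA rich medium at 30 C. A wild-type h90 library from the same medium and temperature shows where the levels stand without the tor2-ts6 allele. A second ddb1-delta library also lacks Pir1, and tor2-ts6 cells with a deletion of cul4 or ubi4, each with and without Pir1, complete the set of 8 libraries. The labels do not say whether a strain is 1 clone or whether any libraries come from separate cultures. All of the deletion strains carry tor2-ts6, so none of them shows the effect of a deletion in cells with the wild-type kinase.

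Ddb1 is the adaptor that joins substrate receptors to the Cul4 ubiquitin ligase. In fission yeast the ligase with the receptor Cdt2 directs the destruction of Spd1, an inhibitor of ribonucleotide reductase, of the replication licensing factor Cdt1 and of the heterochromatin antagonist Epe1. Tor2 is the catalytic subunit of TORC1, which holds cells in growth and keeps the mating and meiosis programme off while nutrients last. When TORC1 is weak, the transcription factor Ste11 and the RNA-binding protein Mei2 are freed, and mating, recombination and sporulation genes follow in order. In growing cells a second layer, the RNA elimination machinery of Mmi1, Red1 and Pir1, destroys meiotic transcripts that are made by mistake. Ubi4 is a polyubiquitin, which supplies ubiquitin to such ligases.

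The 8 libraries held 10157616 to 14251625 gene reads, with 14251625 in tor2-ts6 ddb1-delta and 11596457 in tor2-ts6. The 10 most abundant genes took 8.86 to 15.02% of them. The wild-type library stood apart, with 10.1% multimapping reads against 2.98 to 4.18% in the other 7 libraries, and with 13.8% of its reads in ribosomal protein genes against 4.02% in ddb1-delta and 3.90% in tor2-ts6. The ddb1 gene had 114 and 117 reads in the ddb1-delta libraries, against 1332 to 2738 reads in the other 6. The gene of Pir1, listed as iss10, stood at 65.1 CPM in ddb1-delta and 63.2 CPM in tor2-ts6, where CPM is counts per 1000000 gene reads after TMM scaling. The marker gene ura4 stood at 48.8 CPM in ddb1-delta and 35.7 CPM in tor2-ts6, against 0.0961 CPM in wild type. It was also low in ubi4-delta, at 0.706 CPM, so the strains differ in ura4 too. Transcripts of both mating types were present. Of 7 M cell marker genes 6 were detected, with a summed level of 1421 CPM in ddb1-delta, 5152 CPM in tor2-ts6 and 125 CPM in wild type. The remaining one, mat1-Mc, was at 0 in every library. The 4 P cell markers in the files summed to 1264 CPM in ddb1-delta, 3510 CPM in tor2-ts6 and 668 CPM in wild type. That sum hides differences among the 4. Their log2 ratios of ddb1-delta to tor2-ts6 ran from -2.20 to -0.07, and those of tor2-ts6 to wild type from -0.06 to 8.79. In bulk RNA fewer cells in a state and less RNA per cell cannot be told apart.

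Without Ddb1 the meiotic and mating transcripts of tor2-ts6 cells were lower, and a heat shock gene, iron uptake genes, genes near chromosome ends and many non-coding RNAs were higher. Over the 5826 genes that reached 50 reads in one of the libraries, 295 (5.06%) were higher in ddb1-delta than in tor2-ts6 by a log2 ratio of 1 or more and 138 (2.37%) were lower by that much. The median ratio was -0.03. With 1 library a side this size rule is a description of these libraries and carries no p. The lower set held 120 coding genes and 15 long non-coding RNAs, and the higher set held 112 coding genes and 170 long non-coding RNAs. Of the 295 higher genes 158 had fewer than 50 reads in tor2-ts6, so they entered only through the ddb1-delta library where they are high. The count of higher genes is therefore no support for a difference. To give the coding changes an error, a fit was made over the 7 tor2-ts6 libraries with strain and Pir1 as terms (edgeR quasi-likelihood test, Benjamini-Hochberg adjustment over 6398 genes). It leaves 2 residual degrees of freedom, and the spread of the lone tor2-ts6 library is taken from the other strains. Because all strains share the Pir1 term, any Pir1 effect that differs between them counts as error. Levels of gst2 show such a departure, with 477 CPM in cul4-delta and 2310 CPM in cul4-delta pir1-delta. They were 2842 CPM in ddb1-delta and 3263 CPM in ddb1-delta pir1-delta. In this fit 77 genes (1.2%) rose and 78 (1.22%) fell in ddb1-delta against tor2-ts6, and 1365 had an unadjusted p under 0.05. The counts depend on single libraries: they were 0 and 0 without the ddb1-delta library (829 at an unadjusted p under 0.05), 2 and 1 without ddb1-delta pir1-delta, 3 and 10 without ubi4-delta pir1-delta, 22 and 54 without ubi4-delta, 439 and 321 without cul4-delta, and 484 and 311 without cul4-delta pir1-delta.

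The lowest ratio was that of meu17, which encodes a glucan-alpha-1,4-glucosidase of spore formation, with 5.45 CPM in ddb1-delta, 5.28 CPM in ddb1-delta pir1-delta, 173 CPM in tor2-ts6 and 1.73 CPM in wild type. The 12 lowest genes with a symbol and 100 reads also included ddb1 itself, meu6, meu7, spo4, spo6, mug62, crp79, isp3, mug131, meu10 and mde3. The start regions of 3 of these genes are shown because they hold the core of the FLEX element, the site bound by the meiotic forkhead factor Mei4. Each is the 300 bases before the annotated gene start, read 5′ to 3′ on the gene's strand from RefSeq assembly ASM294v3. For the deposited counts the build was not given in the sources used here. Capitals mark the letters GTAAACA or their reverse complement.
meu6: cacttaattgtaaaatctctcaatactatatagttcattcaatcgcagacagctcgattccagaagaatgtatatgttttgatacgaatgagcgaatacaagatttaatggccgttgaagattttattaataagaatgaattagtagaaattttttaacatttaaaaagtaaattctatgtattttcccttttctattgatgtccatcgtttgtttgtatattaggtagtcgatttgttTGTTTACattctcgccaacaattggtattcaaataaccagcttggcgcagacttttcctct
spo6: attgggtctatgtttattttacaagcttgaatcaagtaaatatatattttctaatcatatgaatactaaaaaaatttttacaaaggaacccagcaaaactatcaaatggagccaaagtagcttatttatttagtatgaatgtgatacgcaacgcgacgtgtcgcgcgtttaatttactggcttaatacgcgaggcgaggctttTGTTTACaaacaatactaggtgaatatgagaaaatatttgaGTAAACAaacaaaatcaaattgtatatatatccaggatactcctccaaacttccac
isp3: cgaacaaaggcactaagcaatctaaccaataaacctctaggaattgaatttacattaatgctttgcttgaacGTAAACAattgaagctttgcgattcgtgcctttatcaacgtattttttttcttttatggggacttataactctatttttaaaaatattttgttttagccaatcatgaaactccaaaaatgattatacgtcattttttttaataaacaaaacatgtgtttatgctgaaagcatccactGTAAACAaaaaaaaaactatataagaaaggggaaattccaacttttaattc

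The meu6 window lies at chrII:453861-454160 on the plus strand, and its only match begins 61 bases before the start. The spo6 window lies at chrII:3102797-3103096 on the plus strand, with matches 97 and 56 bases before the start. The isp3 window lies at chrI:95490-95789 on the plus strand, with matches 228 and 51 bases before the start. Over all windows, searched on both strands, GTAAACA occurred in 46.7% of the 120 lower coding genes (56), 11.6% of the 112 higher coding genes (13) and 17.2% of the 4948 coding genes tested (853). A match is a run of letters and not a measured binding site.

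**Figure D1:**
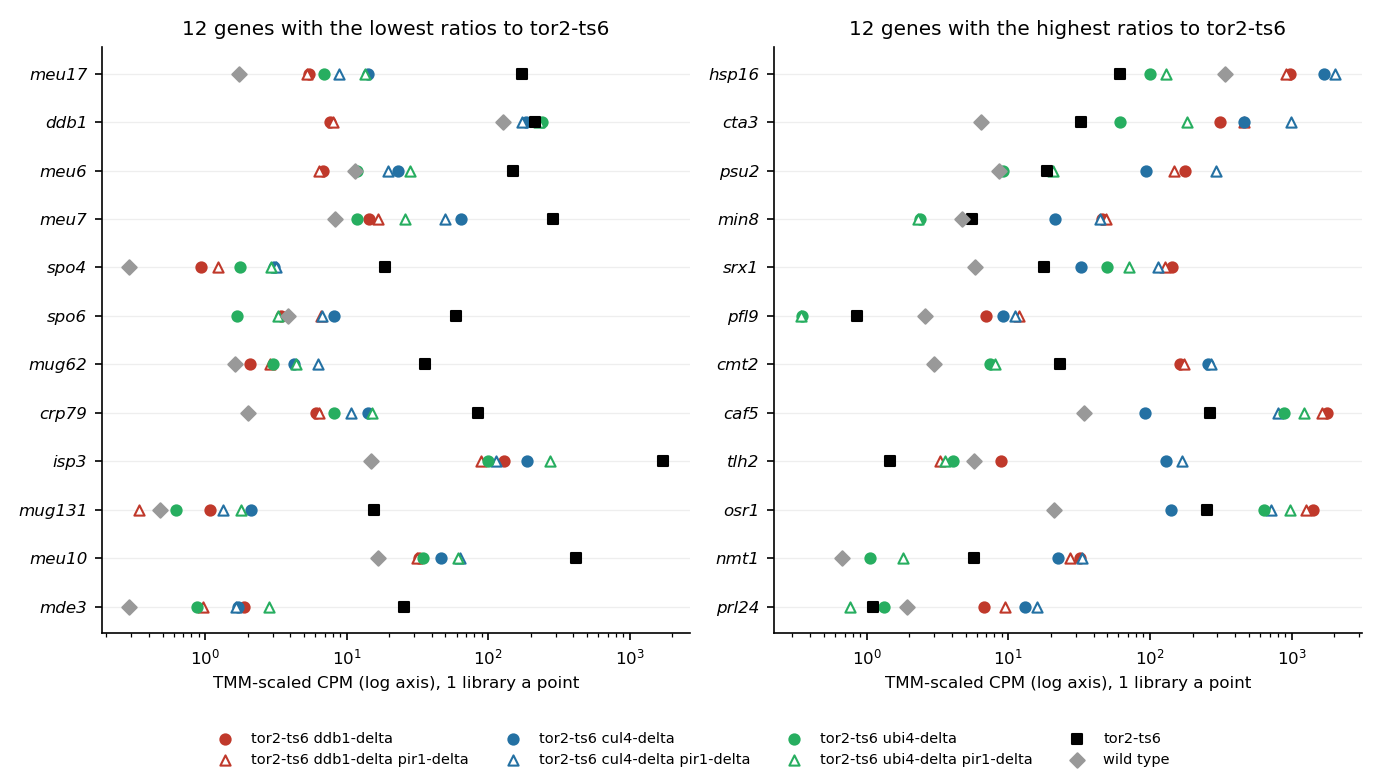
TMM-scaled CPM on a log axis, 1 point per library, for the 12 genes with the lowest ratio (left) and the 12 with the highest ratio (right) of tor2-ts6 ddb1-delta to tor2-ts6. On the left the tor2-ts6 square lies above all 6 deletion libraries for every gene but ddb1. On the right the ubi4-delta points often lie near or below tor2-ts6, as for cmt2. For hsp16 they lie above it, at 100 CPM in ubi4-delta and 130 CPM in ubi4-delta pir1-delta against 61.2 CPM in tor2-ts6.

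The pair of Spo4, a kinase of the DDK family, and its regulatory subunit Spo6, which act in meiosis II, moved together. The spo4 gene had 0.942 CPM in ddb1-delta, 1.24 CPM in ddb1-delta pir1-delta, 18.6 CPM in tor2-ts6 and 0.288 CPM in wild type. The spo6 gene had 3.43 CPM in ddb1-delta, 6.59 CPM in ddb1-delta pir1-delta, 59.7 CPM in tor2-ts6 and 3.84 CPM in wild type. For both, only the tor2-ts6 library was high among the 8. In the edgeR quasi-likelihood fit spo4 fell by 4.24 ± 0.32 on the log2 scale (SE, Benjamini-Hochberg adjusted p = 0.0245) and spo6 by 3.79 ± 0.40 (adjusted p = 0.0335). In the middle meiosis list 9 of 20 genes were lower by the size rule and none higher, with a median ratio of -0.69. In the fit 10 of 20 fell, among them mfr1, an activator of the anaphase-promoting complex in meiosis, mde3, a meiotic kinase, meu14, a component of the forespore membrane edge, and spn5, a septin of spores. The spn5 gene stood at 17.4 CPM in ddb1-delta, 53.8 CPM in tor2-ts6 and 5.96 CPM in wild type.

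In the spore wall list 5 of 14 genes were lower by the size rule and none higher, with a median ratio of -0.75, and 4 fell in the fit. The spore coat gene isp3 had 130 CPM in ddb1-delta and 88.7 CPM in ddb1-delta pir1-delta, against 1736 CPM in tor2-ts6, and wild type had 14.8 CPM. Its fitted difference of -3.97 ± 0.69 missed the threshold of 0.05 (edgeR, adjusted p = 0.0583). The gene meu10, whose GPI-anchored product is needed for the spore wall, stood at 32.4 CPM in ddb1-delta, 417 CPM in tor2-ts6 and 16.6 CPM in wild type, and fell by 3.87 ± 0.26 (edgeR, adjusted p = 0.0174). The amylase homologue gene mde5 fell by 3.10 ± 0.31 (edgeR, adjusted p = 0.028). By contrast mok14, an alpha-glucan synthase gene of spores, stood at 188 CPM in ddb1-delta against 384 CPM in tor2-ts6, a far smaller ratio of -1.03. The column of counts without strand drops reads where genes overlap, and there meu17, meu6, spo4, spo6, mug62, crp79, mug131 and mde3 have at most 3 reads in both libraries.

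Of the recombination and cohesion genes, 12 of 20 were lower by the size rule and none higher, with a median ratio of -1.14, and 6 fell in the fit. The meiotic recombinase gene dmc1 had 12.4 CPM in ddb1-delta, 6.04 CPM in ddb1-delta pir1-delta, 95.2 CPM in tor2-ts6 and 1.92 CPM in wild type, and fell by 3.24 ± 0.44 (edgeR, adjusted p = 0.044). The linear element gene hop1 stood at 15.8 CPM in ddb1-delta, 36.9 CPM in tor2-ts6 and 0.865 CPM in wild type, and fell by 1.14 ± 0.13 (edgeR, adjusted p = 0.0349). The meiotic cohesin gene rec11 fell by 1.34 ± 0.20 (edgeR, adjusted p = 0.0487). In the horsetail movement list 6 of 12 genes were lower by the size rule, with a median of -0.92. Among them dhc1, the dynein heavy chain that swings the meiotic nucleus, stood at 464 CPM in ddb1-delta, 1023 CPM in tor2-ts6 and 152 CPM in wild type. Its fitted difference of -1.24 ± 0.21 missed the threshold (edgeR, adjusted p = 0.056).

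Transcripts removed by Mmi1 differed among themselves. Of 14 tested Mmi1 targets 5 were lower by the size rule and none higher, with a median ratio of -0.79, and 3 of 15 fell in the fit. The gene spo5, an RNA-binding protein of meiosis II, had 37.6 CPM in ddb1-delta, 145 CPM in ddb1-delta pir1-delta, 412 CPM in tor2-ts6 and 4.13 CPM in wild type. The cohesin gene rec8 had 31.2 CPM in ddb1-delta, 182 CPM in ddb1-delta pir1-delta, 65.3 CPM in tor2-ts6 and 12.1 CPM in wild type. Both were lower in ddb1-delta than in tor2-ts6 and higher where Pir1 was also missing, and for rec8 the level without Pir1 was above that of tor2-ts6. The dynactin gene ssm4 stood at 30.7 CPM in ddb1-delta, 34.1 CPM in tor2-ts6 and 29.5 CPM in wild type, a ratio of -0.15. The fit placed spo5 at -3.45 ± 0.43 (edgeR, adjusted p = 0.0414) and rec8 at -1.03 ± 0.49 (edgeR, adjusted p = 0.30). Against tor2-ts6 the ddb1-delta pir1-delta library had 421 genes higher (7.17%) and 144 lower (2.45%) of 5868, and there 6 of 14 Mmi1 targets were higher and 2 lower. The genes of the elimination machinery themselves had no member past the size rule, 0 of 22, with a median of -0.02.

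Many mating genes were lower too. Of 9 pheromone and pheromone processing genes 6 were lower by the size rule and none higher, with a median ratio of -1.35. In ddb1-delta over wild type, where 995 genes were higher (17.1%) and 838 lower (14.4%) of 5812, 5 of these 9 were higher and none lower. The M-factor precursor gene mfm1 had 319 CPM in ddb1-delta, 79.1 CPM in ddb1-delta pir1-delta, 1328 CPM in tor2-ts6 and 0.672 CPM in wild type. The P-factor gene map2 had 452 CPM in ddb1-delta, 162 CPM in ddb1-delta pir1-delta, 2074 CPM in tor2-ts6 and 4.51 CPM in wild type. The tor2-ts6 library was the highest for both, and wild type the lowest. No pheromone gene passed the fit against tor2-ts6 (edgeR, 0 of 9), with mfm1 at -2.44 ± 0.60 (adjusted p = 0.111). The mfm1 levels of the 2 ddb1-delta libraries differed by more than 2-fold. The start region of mfm1 is shown because it holds the TR box, TTCTTTGTT, the site of Ste11. It lies at chrI:4916715-4917014 on the plus strand of ASM294v3, and capitals mark the match, in reverse complement, beginning 79 bases before the start.
mfm1: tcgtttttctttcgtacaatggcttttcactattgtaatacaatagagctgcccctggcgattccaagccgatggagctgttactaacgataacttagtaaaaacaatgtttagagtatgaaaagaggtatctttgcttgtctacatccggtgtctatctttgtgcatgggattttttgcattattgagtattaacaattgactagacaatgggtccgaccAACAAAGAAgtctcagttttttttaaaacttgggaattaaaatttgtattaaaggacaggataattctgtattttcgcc

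The TR box letters occurred in 14.2% of the lower coding genes, 1.79% of the higher coding genes and 1.92% of all coding genes tested. It shares letters with the FLEX core, and in 5 of the 10 lower genes that hold both motifs the matches overlap. Among all coding genes tested 24 hold both and 9 have them overlapping. ACGCGT, the MCB site of the S phase factor MBF, was also more frequent in the lower genes. Its letters occurred in 14.2% of the lower coding genes (17), 0.893% of the higher (1) and 2.99% of all tested (148). Of the lower genes 11 hold both ACGCGT and GTAAACA, and in 1 of them the matches overlap.

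Receptor and signalling genes followed the pheromones, with 9 of 13 lower by the size rule, none higher and a median ratio of -1.33. In the fit 5 of 13 fell. They were map3, the M-factor receptor, sxa2, a carboxypeptidase that degrades P-factor, ste7 and ste4, which act in pheromone signalling, and gpa1, the G protein subunit of the receptors. The map3 gene stood at 188 CPM in ddb1-delta, 755 CPM in tor2-ts6 and 16.7 CPM in wild type, and fell by 2.13 ± 0.33 (edgeR, adjusted p = 0.0497). In the cell fusion list 6 of 8 tested genes were lower by the size rule, with a median of -1.63, and 4 fell in the fit, namely map4, an adhesin of P cells, dni2 and prm1, which encode membrane proteins of fusion, and fus1, the formin of the fusion focus. The fus1 gene stood at 157 CPM in ddb1-delta, 361 CPM in tor2-ts6 and 50.7 CPM in wild type.

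The regulators of meiotic entry were lower in part. The ste11 gene had 557 CPM in ddb1-delta, 440 CPM in ddb1-delta pir1-delta, 1091 CPM in tor2-ts6 and 36.8 CPM in wild type. The mei2 gene had 959 CPM in ddb1-delta, 636 CPM in ddb1-delta pir1-delta, 2697 CPM in tor2-ts6 and 14.1 CPM in wild type. Both genes were lower without Ddb1 than in tor2-ts6 and many times higher than in wild type. The fit gave -1.08 ± 0.24 for ste11 (edgeR, adjusted p = 0.0952) and -1.65 ± 0.27 for mei2 (edgeR, adjusted p = 0.0516), and neither passed. Of the 8 genes of the entry switch 4 were lower by the size rule, with a median ratio of -1.06, and only rep1, the activator of premeiotic S phase genes, fell in the fit, by 1.58 ± 0.15 (edgeR, adjusted p = 0.028). The forkhead gene mei4 stood at 35.0 CPM in ddb1-delta, 61.2 CPM in tor2-ts6 and 22.7 CPM in wild type. Its fitted difference was -0.93 ± 0.28 (edgeR, adjusted p = 0.155).

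Nitrogen starvation genes, which TORC1 also restrains, had 1 of 20 members higher and none lower, with a median ratio of -0.26. The growth lists held no gene past the size rule among 139 ribosomal protein genes (median -0.00) and 28 ribosome biogenesis genes. The TOR pathway list (22 genes), the proteasome (34), DNA repair and checkpoint (28) and heterochromatin and RNAi (22) likewise held none.

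**Figure D2:**
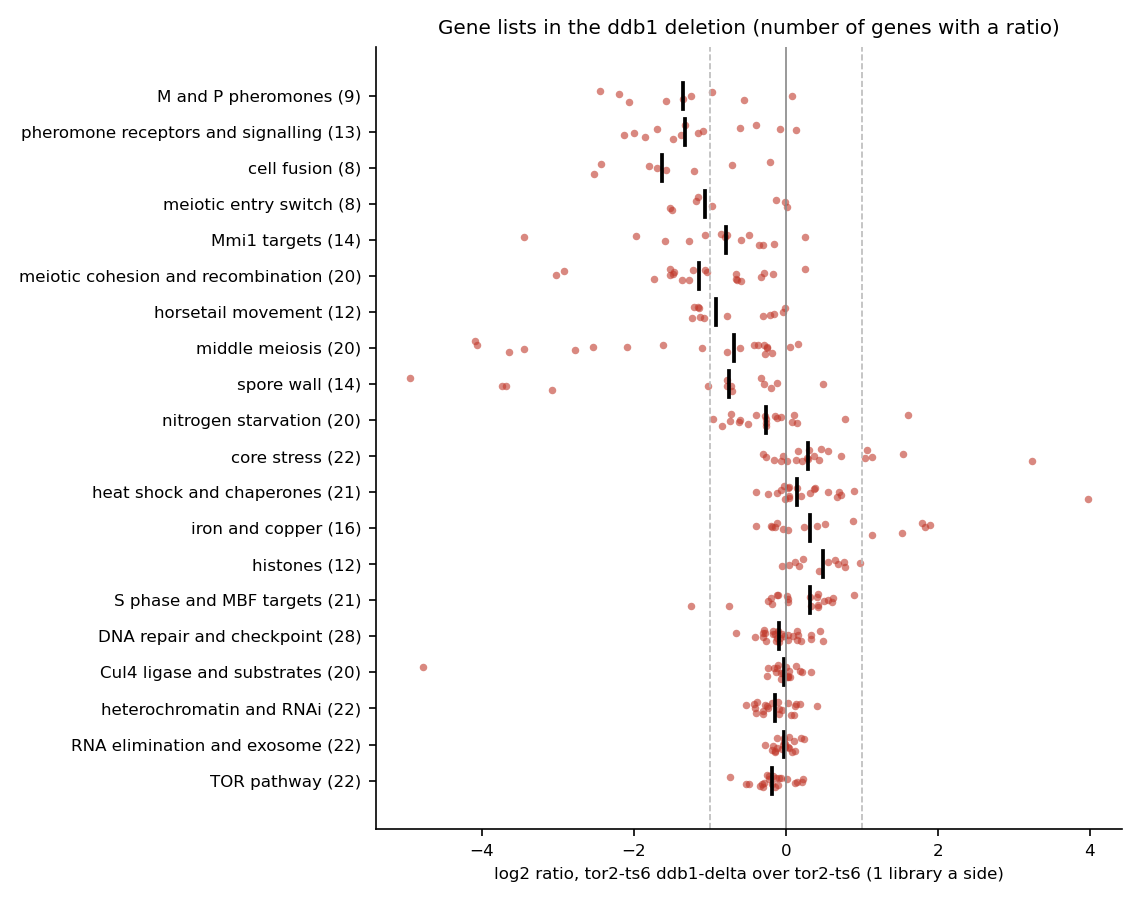
Log2 ratio of tor2-ts6 ddb1-delta to tor2-ts6 for each gene of 20 lists, 1 point per gene, with the median as a black bar and dashed lines at -1 and 1. The mating and meiosis lists have medians of -0.69 to -1.63, while the histone list has a median of 0.50 and iron and copper one of 0.32.

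Setting both strains against wild type shows how far these levels returned. In tor2-ts6 against wild type 914 genes were higher (16.2%) and 883 lower (15.7%) of 5642. Of the 138 genes lower in ddb1-delta than in tor2-ts6, 135 were among those 914 and the other 3 passed in neither direction. Of the 914 genes 135 (14.8%) came back by a log2 ratio of 1 or more and 50 (5.47%) moved further away, beside 138 lower (2.45%) and 178 higher (3.15%) among all 5642. In ddb1-delta 186 (20.4%) of the 914 stood within 1 of wild type, but only 39 of them had also come back by 1 or more. The median of the 914 stood 1.62 above wild type in ddb1-delta and 1.73 above it in tor2-ts6. Of the 883 genes lower in tor2-ts6 62 (7.02%) came back and none moved further. The tor2-ts6 library enters both differences, so a chance high or low level in it moves a gene out and back.

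The return was uneven over the programme. For the 10 middle meiosis genes used, the median stood 0.72 above wild type in ddb1-delta and 3.07 above it in tor2-ts6, on the log2 scale, and 6 of the 10 were within 1 of wild type in ddb1-delta. For 11 spore wall genes the medians were 1.07 in ddb1-delta and 1.85 in tor2-ts6. The 17 recombination genes stood at 1.79 in ddb1-delta and 2.61 in tor2-ts6. For 7 pheromone genes the medians were 4.15 in ddb1-delta and 5.50 in tor2-ts6, and 15 nitrogen starvation genes stood at 3.08 in ddb1-delta and 3.48 in tor2-ts6. The 136 ribosomal protein genes stood at -2.32 in ddb1-delta and -2.31 in tor2-ts6. The spo6 gene came back to wild type, at -0.16, whereas mfm1 remained 8.58 above it. Total-count scaling shifts the median of tor2-ts6 over wild type by 0.44 and gives 1528 higher and 441 lower genes there.

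**Figure D3:**
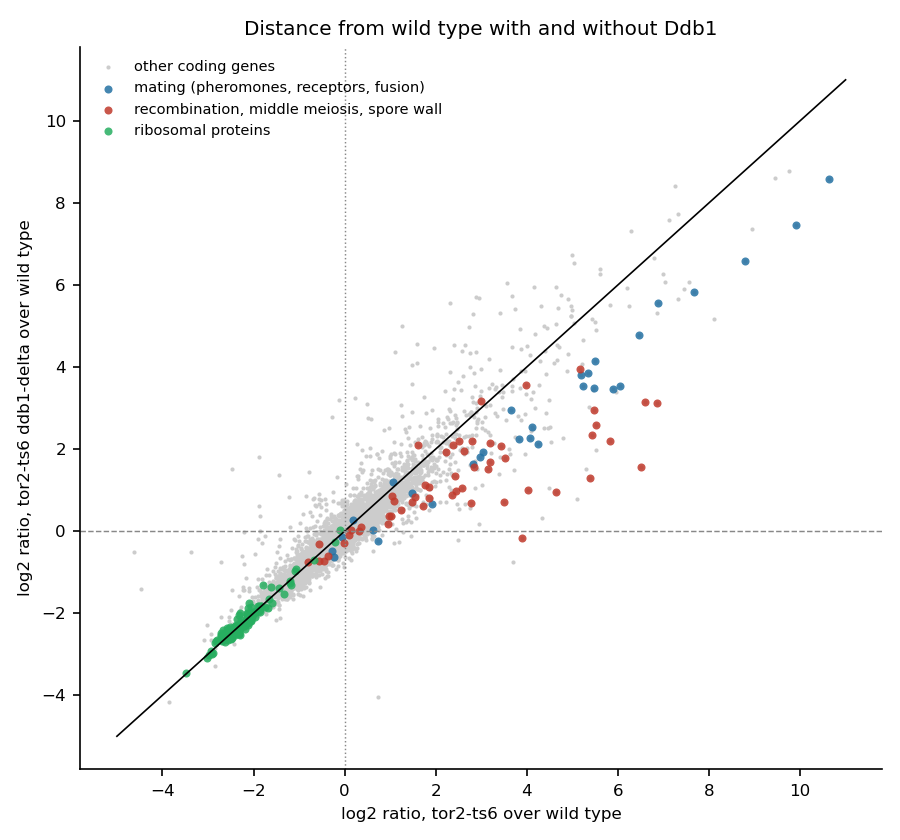
Log2 ratio of tor2-ts6 ddb1-delta to wild type (vertical) against that of tor2-ts6 to wild type (horizontal), 1 point per coding gene and 1 library a strain, with the solid line where both are equal. Meiotic genes (red) and mating genes (blue) mostly lie below the line and above 0, and ribosomal protein genes (green) lie on it.

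Among the genes that were higher, the small heat shock protein gene hsp16 had the highest ratio of those with a symbol. It had 967 CPM in ddb1-delta, 910 CPM in ddb1-delta pir1-delta, 1685 CPM in cul4-delta, 100 CPM in ubi4-delta, 61.2 CPM in tor2-ts6 and 338 CPM in wild type. It was high in both ddb1-delta libraries and lower in tor2-ts6 than in wild type. The fit gave a rise of 3.88 ± 0.25 (edgeR, adjusted p = 0.0174). Other chaperones did not follow to that extent: 1 of 21 genes of the list passed the size rule and the median was 0.15, with the heat shock gene hsp9 at 0.89. In the fit 2 of 21 rose, hsp16 and the small heat shock gene hsp20, by 0.69 ± 0.11 (edgeR, adjusted p = 0.0491). The start region of hsp16, at chrII:2660993-2661292 on the minus strand of ASM294v3, is shown for the run GAANNTTC, a short form of the heat shock element, which begins 93 bases before the start and is in capitals.
hsp16: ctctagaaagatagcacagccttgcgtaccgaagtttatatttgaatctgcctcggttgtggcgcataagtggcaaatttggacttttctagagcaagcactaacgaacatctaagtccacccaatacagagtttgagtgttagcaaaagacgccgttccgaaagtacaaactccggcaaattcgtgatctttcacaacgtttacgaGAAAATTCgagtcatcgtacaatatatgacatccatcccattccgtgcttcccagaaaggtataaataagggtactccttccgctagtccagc

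That run occurred in 52.4% of the 21 heat shock and chaperone genes, in 8.93% of the higher coding genes and in 11.2% of all coding genes tested.

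Core stress genes had 5 of 22 members higher and none lower, with a median ratio of 0.30. The largest was cta3, a calcium-transporting ATPase, with 312 CPM in ddb1-delta, 460 CPM in ddb1-delta pir1-delta, 32.8 CPM in tor2-ts6 and 6.44 CPM in wild type, and it rose by 3.05 ± 0.37 in the fit (edgeR, adjusted p = 0.0401). The gluconeogenesis gene fbp1 stood at 103 CPM in ddb1-delta, 48.9 CPM in tor2-ts6 and 9.13 CPM in wild type, and rose by 1.06 ± 0.13 (edgeR, adjusted p = 0.0415). The glutathione transferase gene gst2, at 2842 CPM in ddb1-delta and 978 CPM in tor2-ts6, had a fitted difference of 1.28 ± 0.71 (edgeR, adjusted p = 0.363), and its level in cul4-delta was 477 CPM. For gst2 the other deletion libraries stood at 3263 CPM in ddb1-delta pir1-delta, 2310 CPM in cul4-delta pir1-delta, 2205 CPM in ubi4-delta and 2494 CPM in ubi4-delta pir1-delta. The sulfiredoxin gene srx1 had 142 CPM in ddb1-delta, 127 CPM in ddb1-delta pir1-delta, 17.9 CPM in tor2-ts6 and 5.86 CPM in wild type. Its fitted difference of 2.65 ± 0.64 did not pass (edgeR, adjusted p = 0.109). Its start region, at chrII:377013-377312 on the minus strand of ASM294v3, holds TTACTAA, a site form of the AP-1-type oxidative stress factor Pap1, 184 bases before the start and in capitals.
srx1: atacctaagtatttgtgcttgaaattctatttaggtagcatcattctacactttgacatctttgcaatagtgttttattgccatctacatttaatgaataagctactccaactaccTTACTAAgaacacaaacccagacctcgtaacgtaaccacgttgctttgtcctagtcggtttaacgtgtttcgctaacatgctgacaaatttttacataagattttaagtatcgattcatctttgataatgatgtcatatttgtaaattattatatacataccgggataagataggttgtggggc

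TTACTAA occurred in 17.9% of the higher coding genes, 11.7% of the lower coding genes and 12.8% of all coding genes tested. Matches of TTACTAA and GTAAACA overlapped in 40 of the 129 windows of tested coding genes that hold both.

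Some iron uptake genes stood further from wild type without Ddb1. In the iron and copper list 5 of 16 genes were higher by the size rule and none lower, with a median of 0.32, and 2 rose in the fit. The ferroxidase gene fio1 had 104 CPM in ddb1-delta, 122 CPM in ddb1-delta pir1-delta, 29.1 CPM in tor2-ts6 and 12.3 CPM in wild type, and rose by 1.96 ± 0.15 (edgeR, adjusted p = 0.0245). The iron permease gene fip1 stood at 93.2 CPM in ddb1-delta, 50.5 CPM in tor2-ts6 and 19.1 CPM in wild type, and rose by 0.93 ± 0.10 (edgeR, adjusted p = 0.0345). The siderophore transporter gene str1 stood at 72.4 CPM in ddb1-delta, 24.9 CPM in tor2-ts6 and 10.3 CPM in wild type, with a fitted difference of 1.79 ± 0.36 (edgeR, adjusted p = 0.0769). The siderophore transporter gene str2 had a ratio of -0.03 and the copper transporter gene ctr4 one of -0.39. For the 6 iron genes that were higher in tor2-ts6 than in wild type, the median stood 2.54 above wild type in ddb1-delta and 1.32 above it in tor2-ts6.

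Genes around the ligase itself were nearly level. Of 20 genes of the Cul4 ligase, its partners and substrates only ddb1 passed the size rule, with a median of -0.02. The receptor gene cdt2 stood at 121 CPM in ddb1-delta, 130 CPM in tor2-ts6 and 39.4 CPM in wild type. The transcript of the substrate Spd1 stood at 181 CPM in ddb1-delta and 213 CPM in tor2-ts6, and that of Epe1 at 104 CPM in ddb1-delta and 94.6 CPM in tor2-ts6. These are RNA levels, and the proteins were not measured. Of 21 S phase genes under the MBF factor only mik1, a kinase that restrains mitosis, passed the size rule, with 45.5 CPM in ddb1-delta, 108 CPM in tor2-ts6 and 36.5 CPM in wild type. It fell by 1.25 ± 0.18 in the fit (edgeR, adjusted p = 0.0446). None of the 12 genes of the histone list passed the size rule, with ratios of -0.05 to 0.98 and a median of 0.50. The list includes ams2, which encodes a GATA-type transcription factor and not a histone. The histone H2B gene htb1 stood at 2108 CPM in ddb1-delta, 1067 CPM in tor2-ts6 and 1272 CPM in wild type. Near-identical copies of H3 and H4 genes can share reads, so single values of hht and hhf genes are uncertain.

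Long non-coding RNAs made up 170 of the 295 genes higher by the size rule, and 35 of the 77 that rose in the fit. Of 769 tested 170 (22.1%) were higher and 15 (1.95%) lower, against 112 (2.26%) higher and 120 (2.43%) lower of 4948 coding genes. The number higher was 119 of 500 among those lying opposite a coding gene, 24 of 113 among those on the same strand as one and 24 of 142 among other intergenic ones. Of these 170 RNAs 126 had fewer than 50 reads in tor2-ts6, so they entered only through the ddb1-delta library where they are high, and their count is no support for a difference. As a description, over the 170 RNAs the median was 7.16 CPM in ddb1-delta and 8.10 CPM in ddb1-delta pir1-delta, against 2.09 CPM in tor2-ts6 and 2.98 CPM in wild type. In the fit 35 of 1208 non-coding RNAs rose and 4 fell. The RNA with the highest ratio, SPNCRNA.863, stood at 133 CPM in ddb1-delta, 4.96 CPM in tor2-ts6 and 250 CPM in wild type, so tor2-ts6 was the low library. SPNCRNA.1526 stood at 40.4 CPM in ddb1-delta, 1.79 CPM in tor2-ts6 and 1.15 CPM in wild type. Reads outside any gene made up 3.15% in ddb1-delta, 2.20% in tor2-ts6 and 1.30% in wild type, and the ratio of reads on the counted strand to reads on the other was 6.28 in ddb1-delta, 6.75 in tor2-ts6 and 7.37 in wild type. The part of these 2 measures in the result was not tested. In the column without strand 46 non-coding RNAs were higher and 8 lower.

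Coding genes near the ends of chromosomes I and II were counted apart. Among the outermost 30 coding genes of each arm 28 of 71 tested were higher and 2 lower, with a median ratio of 0.48, against 59 higher and 99 lower of 3982 other coding genes on these chromosomes, with a median of -0.07. Of the 28 genes 12 had fewer than 50 reads in tor2-ts6 and entered only through ddb1-delta. In the fit 9 of 88 rose and none fell. On chromosome III 6 of 57 end genes were higher and 1 lower. The catechol O-methyltransferase gene cmt2 had 163 CPM in ddb1-delta, 173 CPM in ddb1-delta pir1-delta, 23.1 CPM in tor2-ts6 and 2.98 CPM in wild type, and rose by 2.86 ± 0.12 (edgeR, adjusted p = 0.00411). The telomere-linked helicase gene tlh2 had 8.88 CPM in ddb1-delta, 3.29 CPM in ddb1-delta pir1-delta, 1.45 CPM in tor2-ts6 and 5.76 CPM in wild type. Both ddb1-delta libraries exceeded tor2-ts6, and wild type lay between those of ddb1-delta. Its fitted difference of 2.17 ± 0.79 did not pass (edgeR, adjusted p = 0.211), and it has a near-identical copy, tlh1, that can share its reads.

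**Figure D4:**
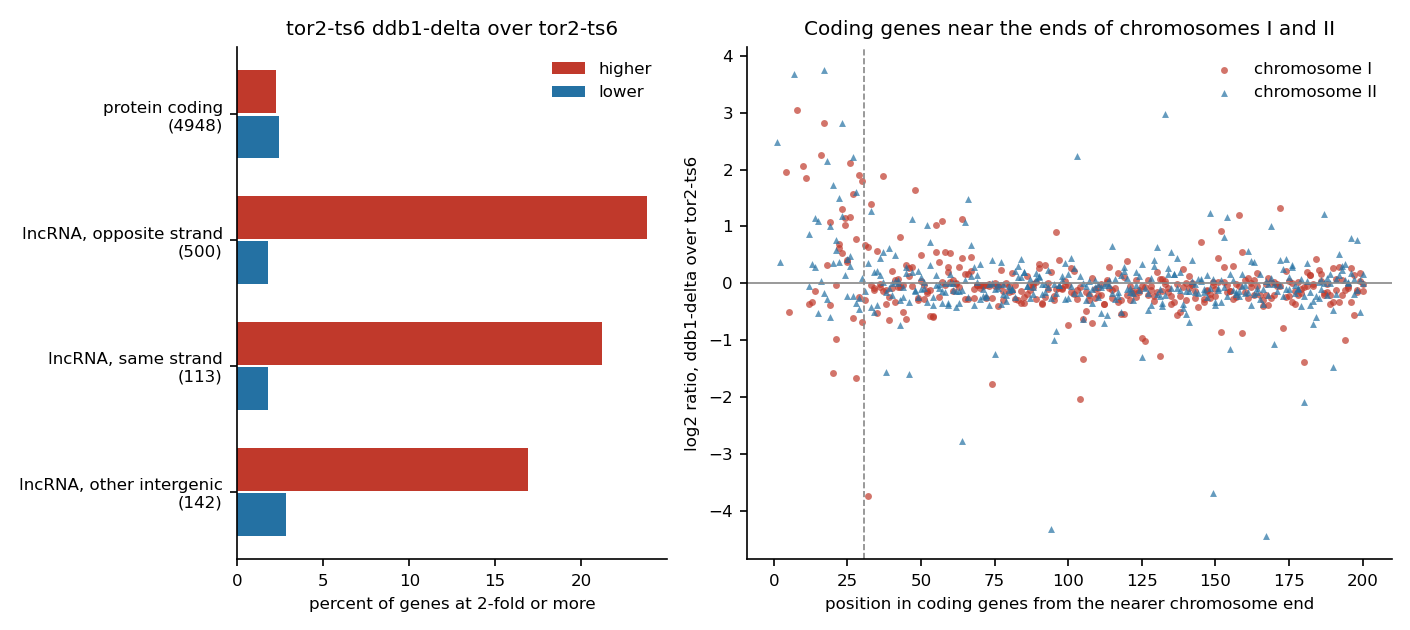
Left, percent of genes higher (red) and lower (blue) at 2-fold or more in tor2-ts6 ddb1-delta over tor2-ts6, by class, with the number tested. Right, log2 ratio of each coding gene by its position from the nearer end of chromosome I or II, where genes left of the dashed line, the outermost 30 of each arm, reach 3.74.

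Cul4 and Ddb1 work in the same ligase, although Cul4 is also annotated as a subunit of another ubiquitin ligase, CLRC. The strains lacking each protein were set against each other. All of these comparisons with tor2-ts6 share its 1 library. In cul4-delta over tor2-ts6 512 genes were higher (8.72%) and 371 lower (6.32%) of 5872, and in ubi4-delta over tor2-ts6 74 were higher (1.33%) and 462 lower (8.29%) of 5575. In the middle meiosis list, 9 of 20 genes were lower in ddb1-delta, 10 in cul4-delta and 9 in ubi4-delta. The nitrogen starvation list differed, with 0 of 20 genes lower and 1 higher in ddb1-delta (median ratio -0.26). In cul4-delta 14 were lower and 2 higher (median -2.69), and in ubi4-delta 4 were lower and 0 higher (median -0.49). The cul4-delta counts rest on the 1 library with Pir1 present. In the fit, which uses both cul4-delta libraries, the median of ddb1-delta minus cul4-delta over these 20 genes was 1.07, and 0 of them passed. Ratios of meu17 to tor2-ts6 were -4.95 in ddb1-delta, -3.59 in cul4-delta and -4.62 in ubi4-delta, so it was low in all 3 strains. Of the outermost coding genes of chromosomes I and II, 28 of 71 were higher and 2 lower in ddb1-delta, 30 of 77 and 12 in cul4-delta, and 2 of 58 and 34 in ubi4-delta. Of long non-coding RNAs, 170 of 769 were higher and 15 lower in ddb1-delta, 317 of 806 and 40 in cul4-delta, and 15 of 572 and 150 in ubi4-delta. Reads outside any gene made up 3.15% in ddb1-delta, 4.31% in cul4-delta, 1.99% in ubi4-delta and 2.20% in tor2-ts6. The ratio of reads on the counted strand to the other was 6.28 in ddb1-delta, 5.81 in cul4-delta, 7.00 in ubi4-delta and 6.75 in tor2-ts6. The part of these measures in the strain differences was not tested.

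The ddb1-delta strain was also tested directly against cul4-delta and ubi4-delta. The fit called 12 genes higher (0.188%) and 65 lower (1.02%) in ddb1-delta than in cul4-delta, with 1911 at an unadjusted p under 0.05, and 1597 higher (25.0%) and 915 lower (14.3%) than in ubi4-delta, with 3342 at an unadjusted p under 0.05. DESeq2 called 194 higher and 324 lower than in cul4-delta. The first pair of counts ran from 0 to 692 higher and 0 to 468 lower when 1 library was left out. It was 0 and 0 without ddb1-delta (768 at an unadjusted p under 0.05) or without ddb1-delta pir1-delta (1232), 0 and 1 without ubi4-delta or without ubi4-delta pir1-delta, 67 and 253 without cul4-delta, and 692 and 468 without cul4-delta pir1-delta. Against ubi4-delta the counts were 503 and 76 without ubi4-delta, 61 and 1 without ubi4-delta pir1-delta, 318 and 15 without ddb1-delta, 281 and 38 without ddb1-delta pir1-delta, 1858 and 1795 without cul4-delta, and 2112 and 1414 without cul4-delta pir1-delta.

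None of the mating and meiosis lists had a member lower in ddb1-delta than in cul4-delta in this fit, and hop1 was the 1 member higher, by 0.82 ± 0.11 (edgeR, adjusted p = 0.0496). The tlh2 gene, at 8.88 CPM in ddb1-delta and 3.29 CPM in ddb1-delta pir1-delta, stood at 130 CPM in cul4-delta and 169 CPM in cul4-delta pir1-delta, a difference of -4.64 ± 0.40 (edgeR, adjusted p = 0.0435). Histone genes went the other way. The H4 gene hhf1 had 892 CPM in ddb1-delta and 950 CPM in ddb1-delta pir1-delta, against 420 CPM in cul4-delta and 395 CPM in cul4-delta pir1-delta, and 4 of 12 genes of the histone list were higher by this fit. The iron genes fio1, at 104 CPM in ddb1-delta against 260 CPM in cul4-delta, and fip1, at 93.2 CPM in ddb1-delta against 193 CPM in cul4-delta, were lower.

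Against ubi4-delta, hsp16 was higher in ddb1-delta by 3.10 ± 0.18 (edgeR, adjusted p = 0.00185) and cmt2 by 4.50 ± 0.10 (edgeR, adjusted p = 0.000248). Of 88 outermost coding genes 62 were higher and none lower, and of 1208 non-coding RNAs 695 were higher and 15 lower. Of 9 pheromone genes 7 were lower in ddb1-delta than in ubi4-delta. For mfm1 the levels were 319 CPM in ddb1-delta and 79.1 CPM in ddb1-delta pir1-delta, against 602 CPM in ubi4-delta and 664 CPM in ubi4-delta pir1-delta, and the difference was -1.96 ± 0.53 (edgeR, adjusted p = 0.0386). Of 34 proteasome genes 25 were lower in ddb1-delta than in ubi4-delta.

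**Figure D5:**
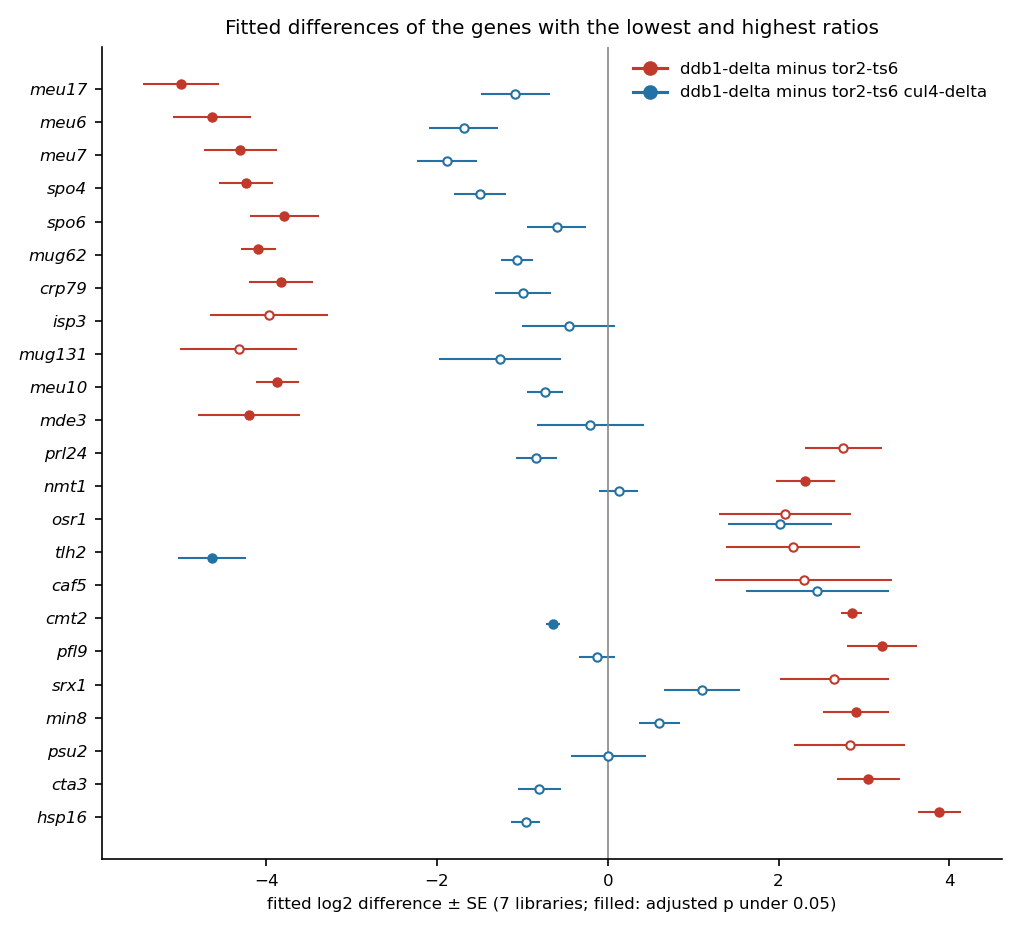
Fitted log2 differences with their SE over 7 libraries for the genes with the lowest and highest ratios, ddb1-delta minus tor2-ts6 in red and ddb1-delta minus tor2-ts6 cul4-delta in blue, filled where the adjusted p is under 0.05. The meiotic genes lie at -3.79 (spo6) or lower against tor2-ts6 and between -0.20 and -1.88 against cul4-delta, and tlh2 and cmt2 are the filled blue points among the genes drawn, which leave out ddb1 itself.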

How the data were processed

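RNA of fission yeast was sequenced in bulk. The deposited values are raw counts, whole reads of each gene, in files that STAR writes, holding an unstranded column and 1 column for either strand. Trimmomatic and STAR are named in the submitters' processing notes, with versions, build and annotation not given in the sources used here. Column 3, the strand with more reads, was used. Lines without a gene were set aside (as shares of gene reads and all such lines together, multimapping 2.98 to 10.1%, outside genes 1.30 to 5.59%, ambiguous 1.95 to 3.08%). Of 7015 IDs 6845 (97.6%) matched the reference gene table, used for names and promoter windows.

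TMM factors (0.743 to 1.16) came from the 8 h90 libraries. Single-library pairs are log2 ratios of CPM with a prior count of 2. The 7-library fit used R 4.3.3 and edgeR 4.0.16 (filterByExpr, glmQLFit, glmQLFTest, Benjamini-Hochberg, 0.05), with DESeq2 1.42.0 as an alternative. No spread between replicates enters the p-values. They set the size of a strain difference against how far these libraries depart from the fitted strain and Pir1 terms. That departure may be technical or a Pir1 effect that differs by strain, which was not tested, and reads carry no molecular identifiers. The members, lists and tests were chosen with earlier results of these data known. Named genes are the 12 lowest and 12 highest ratios with a symbol and 100 reads, up to 6 members per list, the 8 largest changes each way in tor2-ts6 and fixed anchors. A selection is printed, and genes outside that rule (ctr4, str2, gpa1, hop1, mei4, meu14, spn5, ssm4, ste4, tlh1, mat1-Mc, SPNCRNA.863, SPNCRNA.1526 and those in the closing section) were chosen after their values were seen.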

Additional observations from a re-analysis of the deposited data

Results flagged for a closer look

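Differences between deletion strains that passed the edgeR quasi-likelihood fit (log2 ± SE, Benjamini-Hochberg adjusted p) among the named genes are given here as values. Against ubi4-delta, ddb1-delta was higher in hsp16 by 3.10 ± 0.18 (edgeR, adjusted p = 0.00185), in the calcium ATPase gene cta3 by 1.90 ± 0.26 (0.00866), in the glucosidase homologue gene psu2 by 3.67 ± 0.51 (0.00899) and in min8 by 4.42 ± 0.33 (0.00267). It was higher in the cell surface glycoprotein gene pfl9 by 4.78 ± 0.35 (edgeR, adjusted p = 0.00267), in cmt2 by 4.50 ± 0.10 (0.000248), in the thiamine synthesis gene nmt1 by 4.45 ± 0.32 (0.00267) and in the non-coding RNA prl24 by 2.99 ± 0.33 (0.00588). The meiotic gene meu6 differed by -1.50 ± 0.41 (edgeR, adjusted p = 0.0395) from ubi4-delta. Both ddb1-delta libraries lay above both ubi4-delta libraries for hsp16, cta3, psu2, min8, pfl9, cmt2, nmt1 and prl24, and below them for meu6.

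Against cul4-delta, ddb1-delta differed in tlh2 by -4.64 ± 0.40 (edgeR, adjusted p = 0.0435), in fio1 by -1.18 ± 0.10 (0.0435), in fip1 by -1.02 ± 0.07 (0.0342) and in cmt2 by -0.64 ± 0.08 (0.0488). Histone genes were higher in ddb1-delta, hhf3 by 1.03 ± 0.11 (edgeR, adjusted p = 0.045), hhf1 by 1.19 ± 0.13 (0.045), hht1 by 1.08 ± 0.13 (0.0488) and hta2 by 1.18 ± 0.12 (0.045). Each of these calls against cul4-delta is absent when either ddb1-delta library is left out, since no gene passes then.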

How the results depend on the processing

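The pair has 1 library a side, so no count there has a replicate check, and depth limits genes under 50 reads. Total-count scaling gave 1528 genes higher and 441 lower in tor2-ts6 than in wild type. The column without strand gave 144 genes higher and 72 lower in ddb1-delta than in tor2-ts6, with 46 and 8 non-coding RNAs, and 71 of the higher and 25 of the lower tor2-ts6 genes came back towards wild type. It drops reads of overlapping genes. The number of lower tor2-ts6 genes that came back was 102 at 20 reads, 37 at 100 reads, 151 with no filter, 119 (beside 225 of the higher) under a 1.5-fold rule, and 108 with the GFP-Pir1 library in place of wild type, an alternative chosen after seeing the data. With 100 reads 92 non-coding RNAs were higher; with no filter 502 genes were higher, with 327 non-coding RNAs higher and 25 lower. Of 183 values of named genes in the pair under these alternatives 6 moved, all in the column without strand (ddb1 -3.18, meu7 -2.09, isp3 -3.58, meu10 -0.95, psu2 2.77 and min8 2.14), and none reversed. The read filters do not enter a gene's ratio, so under those settings the values were the same by construction. Genes with 3 or fewer reads in both libraries of the column without strand had no value there. The 183 values are therefore not 183 separate checks.

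In the fit, DESeq2 called 237 higher and 163 lower against tor2-ts6 and 194 higher and 324 lower against cul4-delta. The column without strand gave 35 and 42 against tor2-ts6, 30 lower against cul4-delta and 1013 higher against ubi4-delta. Against cul4-delta 20 genes were higher with no filter and 3 with DESeq2 size factors. Leaving out 1 library at a time gave 0 to 484 higher and 0 to 321 lower against tor2-ts6, 0 to 692 and 0 to 468 against cul4-delta, and 61 to 2112 and 1 to 1795 against ubi4-delta. The cause of these shifts was not tested; leaving out a library lowers the residual degrees of freedom. Of the named genes' fitted results 319 kept direction and side of the threshold, 27 crossed into it, 148 crossed out of it and none reversed. No paired analysis was possible because each group has 1 library and the labels give no replicate numbers that pair them.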

Other observations

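A few transporter and redox genes, chosen after their values were seen, are given as values. None passed the edgeR quasi-likelihood fit against tor2-ts6, with adjusted p of 0.284 for caf5, 0.344 for obr1, 0.127 for bfr1 and 0.198 for trr1. The spermine family transporter gene caf5 had 1777 CPM in ddb1-delta, 1652 CPM in ddb1-delta pir1-delta, 266 CPM in tor2-ts6 and 34.4 CPM in wild type. The quinone dehydrogenase gene obr1 stood at 3794 CPM in ddb1-delta, 1345 CPM in tor2-ts6 and 1514 CPM in wild type, and the brefeldin A efflux transporter gene bfr1 at 1759 CPM in ddb1-delta, 727 CPM in tor2-ts6 and 1141 CPM in wild type. The thioredoxin reductase gene trr1 stood at 418 CPM in ddb1-delta, 267 CPM in tor2-ts6 and 391 CPM in wild type, a ratio to tor2-ts6 of 0.65. In ubi4-delta caf5 stood at 887 CPM, obr1 at 2649 CPM and bfr1 at 2712 CPM. The 2 cul4-delta libraries differed from each other in caf5, obr1 and bfr1. With Pir1 present they stood at 92.1 CPM for caf5, 806 CPM for obr1 and 712 CPM for bfr1, and in cul4-delta pir1-delta at 808, 3495 and 1443 CPM. The gene of Pap1, a transcription factor of oxidative stress, stood at 546 CPM in ddb1-delta and 529 CPM in tor2-ts6.

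The zinc transporter gene zrt1, also chosen after its value was seen, stood at 298 CPM in ddb1-delta, 112 CPM in tor2-ts6 and 517 CPM in wild type, so the ddb1-delta level lay between the others. In the 2 cul4-delta libraries the gene cul4 had 942 and 926 reads in the strand column used but 14 and 39 in the column without strand, so the strand column does not show its deletion.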
